A study of Homo sapiens with 6 samples.

Results

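The expression of 8 genes that guard the G1 phase of the cell cycle or are recurrently lost or altered in bladder cancer was read in every library of the series. They were taken by symbol from a table of 50867 genes, and all 8 were found. CDKN2A, CDKN2B and MTAP lie side by side on chromosome 9p21, RB1 encodes the retinoblastoma protein, CCND1 encodes cyclin D1, CDKN1A encodes the inhibitor p21, TSC1 restrains mTORC1 signalling, and KDM6A encodes a histone H3 lysine demethylase. The question was whether loss of their expression marked the cell line behind each library label.

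RNA had been sequenced in 6 libraries from 2 lines of human bladder carcinoma cells, which are named UM-UC-3 and 5637. Cells of either line were infected with lentivirus carrying a control hairpin (sh-NC) or 1 of 2 hairpins, sh-LNMAT1#1 or sh-LNMAT1#2, against the long noncoding RNA LNMAT1, and all were kept in puromycin for 2 weeks. The labels call the cells stable lines and name no untreated parental cells among these libraries, so every library carried the vector and the selection. With 1 library for each construct in each line, a single construct had no replicate, and the 2 hairpins were different reagents rather than repeat cultures.

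In normal cells the CDKN2A and CDKN2B products block CDK4 and CDK6, which together with cyclin D1 would otherwise phosphorylate the retinoblastoma protein and release the E2F transcription factors. Tumours usually disable this pathway once, either at the inhibitors or at RB1 itself, and MTAP, an enzyme of methionine salvage, is often deleted with its neighbour CDKN2A. Of the lines, UM-UC-3 is known in the field for lacking CDKN2A, and 5637 for lacking the retinoblastoma protein. These statements are background and were not measured here.

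Libraries were compared as FPKM, fragments scaled by exon length and by the library's total, and the depth recovered from single-exon genes was 19375123 to 24711041 fragments per library. LNMAT1, listed as LINC01296, stood in UM-UC-3 at 14.2 FPKM with the control hairpin and at 6.20 and 6.70 with the hairpins against it. The level was 11.7 in the library labelled 5637 sh-NC, against 4.70 and 2.14 with the hairpins in 5637. The library labelled 5637 sh-NC went against its label. Over the 12716 genes that averaged 1 FPKM or more, its log2 values had a Pearson r of 0.617 and 0.622 with the 5637 hairpin libraries, and with UM-UC-3 of 0.923 (sh-NC), 0.985 (sh-LNMAT1#1) and 0.934 (sh-LNMAT1#2). Among themselves the UM-UC-3 libraries had an r of 0.923 to 0.969, and the 5637 hairpin libraries one of 0.975. Each of these was below the 0.985. These are correlations across genes, which are not independent replicates. EPCAM, which defines epithelial cells, was at 33.8 and 35.6 FPKM in the 5637 hairpin libraries and at no more than 0.0210 FPKM in the other 4, so this epithelial marker was practically absent from the UM-UC-3 libraries as well as from the library labelled 5637 sh-NC. Of 8 epithelial markers, all 8 were higher in the 5637 hairpin libraries than in those of UM-UC-3, beside 18.4% of all genes called higher. KRT8 (4.36 to 4.90 FPKM) and KRT18 (15.9 to 25.2 FPKM) were nonetheless present in the other 4 libraries. EPCAM, CDH1, KRT19, KRT5, KRT17 and KRT7 averaged 1 FPKM or more, the limit for testing, only through the 5637 hairpin libraries. Their calls therefore add no separate support to the values. Of 5 mesenchymal markers, 4 were lower and 1, FN1, was higher in the 5637 hairpin libraries, beside 19.1% and 18.4% of all genes. Of the urothelial markers, GATA3, PPARG and TP63 were higher there too. GATA3 and TP63 also reached the limit for testing only through the 5637 hairpin libraries. The uroplakins UPK1A, UPK1B, UPK2 and UPK3A, which define the surface of the bladder lining, reached no more than 0.556 FPKM in any library. Of 6 blood and endothelial markers, PTPRC, CD3E and HBB were at or near 0 in all 6 libraries, and CD68, the 1 that could be tested, was at 0.749 and 0.826 FPKM in the 5637 hairpin libraries and at 12.97 to 30.98 FPKM in the other 4. Each result is therefore given without the library labelled 5637 sh-NC, by comparing the hairpin libraries of the lines, and its own value stands beside it.

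The 9p21 genes carried the clearest pattern, and the promoters of the genes on this stretch are shown because these neighbours were near 0 in the same 4 libraries. The sequences are from RefSeq on GRCh38.p14, run from 250 bases before to 50 after the annotated start, and are written 5′ to 3′ on the strand of the gene. Capitals mark the GC box GGGCGG on either strand. MTAP is at chr9:21802386-21802685 on the plus strand. The CDKN2A windows, chr9:21995275-21995574 and chr9:21974808-21975107 on the minus strand, belong to its upstream and downstream first exons, which begin the ARF and INK4a transcripts. CDKN2B is at chr9:22009256-22009555 on the minus strand.
MTAP: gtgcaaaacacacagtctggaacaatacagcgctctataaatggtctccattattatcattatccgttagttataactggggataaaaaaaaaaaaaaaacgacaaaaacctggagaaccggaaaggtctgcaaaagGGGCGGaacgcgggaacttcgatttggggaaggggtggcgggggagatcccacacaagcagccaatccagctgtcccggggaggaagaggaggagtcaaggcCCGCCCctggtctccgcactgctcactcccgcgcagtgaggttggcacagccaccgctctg
CDKN2A upstream start: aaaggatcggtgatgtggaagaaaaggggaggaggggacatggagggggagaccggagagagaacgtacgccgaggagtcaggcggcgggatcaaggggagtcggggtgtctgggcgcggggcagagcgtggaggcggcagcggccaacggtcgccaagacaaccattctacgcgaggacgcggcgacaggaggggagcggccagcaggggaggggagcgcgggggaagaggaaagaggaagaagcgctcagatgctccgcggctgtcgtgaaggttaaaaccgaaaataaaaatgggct
CDKN2A downstream start: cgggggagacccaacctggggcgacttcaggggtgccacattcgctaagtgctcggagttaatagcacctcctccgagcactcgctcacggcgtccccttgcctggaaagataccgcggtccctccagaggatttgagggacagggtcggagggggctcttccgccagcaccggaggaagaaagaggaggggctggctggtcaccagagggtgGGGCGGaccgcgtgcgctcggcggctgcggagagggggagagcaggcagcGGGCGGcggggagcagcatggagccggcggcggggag
CDKN2B: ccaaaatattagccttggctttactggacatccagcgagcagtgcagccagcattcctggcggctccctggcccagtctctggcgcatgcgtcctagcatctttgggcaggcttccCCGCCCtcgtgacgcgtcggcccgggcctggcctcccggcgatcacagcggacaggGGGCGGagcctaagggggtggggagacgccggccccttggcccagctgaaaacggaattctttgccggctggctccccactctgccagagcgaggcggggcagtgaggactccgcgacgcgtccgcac
The MTAP window held 15 CG dinucleotides and 2 GC boxes. The upstream CDKN2A window held 28 CG and 0 GC boxes, the downstream one 26 CG and 2 GC boxes, and the CDKN2B window 25 CG and 2 GC boxes. Across 35116 promoters of the same length the median was 14 CG, and 45.0% held a GC box, so the windows of CDKN2A and CDKN2B were richer in CG than most. These are descriptions of the reference sequence only.

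CDKN2A encodes p16 and, in another reading frame, ARF, which protects p53. It lies at 9:21967753-21995301 (hg38, ENSG00000147889). It stood at 22.8 FPKM in 5637 sh-LNMAT1#1 and at 34.8 FPKM in 5637 sh-LNMAT1#2. The UM-UC-3 libraries stood at 0.00463 FPKM (sh-NC), 0.00513 (sh-LNMAT1#1) and 0.00996 (sh-LNMAT1#2), and the library labelled 5637 sh-NC at 0.0102. Both 5637 hairpin libraries were high and the other 4 were all under a floor of 3 fragments, so the sets did not overlap. Against that floor, taken per library with the shortest annotated transcript as the length, CDKN2A was at least 74.97-fold higher in the 5637 hairpin libraries, and with all annotated exons as the length at least 734-fold higher. Floors cover counting error only. On the log2(FPKM + 0.5) scale, which understates changes of low values, the hairpin libraries of the lines differed by 5.82 (standard error 0.27, adjusted p = 0.000189, limma). CDKN2A reached an average of 1 FPKM, the limit for testing, only through the 5637 hairpin libraries. The UM-UC-3 values lay at the bottom of the scale with almost no spread, so this p-value adds no separate support to the values themselves. The sh-NC libraries of the lines differed by 0.02 (standard error 0.38, adjusted p = 0.996).

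CDKN2B encodes p15, the INK4 inhibitor induced by TGF-beta, at 9:22002903-22009363 (ENSG00000147883). It stood at 2.28 and 2.84 FPKM in the 5637 hairpin libraries, was listed at 0 in all 3 UM-UC-3 libraries, and stood at 0.00763 FPKM in the library labelled 5637 sh-NC. The 2 hairpin libraries of 5637 again stood alone, at least 14.5-fold above the floor with the shortest transcript. Its mean over the libraries was under 1 FPKM, so it was not among the genes tested. In a fit with no filter over 36963 genes, its difference between the hairpin libraries was 2.61 (standard error 0.16, adjusted p = 0.0169, limma), and that between the sh-NC libraries was 0.02. That fit called 2983 genes higher and 1983 lower between the hairpin libraries. Between the sh-NC libraries it called 488 and 419, where the fit with the filter called 0, so its p-value is given as a description only.

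MTAP, which recycles methylthioadenosine to adenine and methionine, spans 9:21802543-21937651 (ENSG00000099810). It stood at 5.65 and 8.23 FPKM in the 5637 hairpin libraries, was listed at 0 in all 3 UM-UC-3 libraries, and stood at 0.00428 FPKM in the library labelled 5637 sh-NC. This was the order seen for both inhibitors, with a fold of at least 13.01 against the floor. Like CDKN2A, MTAP reached the limit for testing only through the 5637 hairpin libraries, so the p-value that follows adds no separate support. The difference between the hairpin libraries was 3.87 on the log2 scale (standard error 0.24, adjusted p = 0.000327, limma), and that between the sh-NC libraries was 0.01 (adjusted p = 0.998).

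The genes around these 3 were read in order of position. From MLLT3 to LINGO2 (9:20341665-28670286) the table held 97 rows, 25 of them with at least 1 FPKM in any library. From MTAP to DMRTA1 (9:21802543-22455740, 653 kb) there were 14 rows. Of these, 12 were above 0 in both 5637 hairpin libraries, and 9 were at 0 in all 4 other libraries. A row at 0 in all 6 libraries made up 1 of those 9. The other 5 were above 0 in at least 1 of those 4. Of them, MTAP, CDKN2A, CDKN2B and DMRTA1 reached no more than 0.0102 FPKM there, a ceiling that holds for these genes and not for every row of the stretch.

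Further named rows of the stretch followed the same order. DMRTA1, a transcription factor gene, was at 0.984 and 1.08 FPKM in the 5637 hairpin libraries and at no more than 0.00806 elsewhere. The antisense transcript RP11-70L8.4 was at 2.53 and 1.76 FPKM and at 0 elsewhere, and so were the pseudogene TUBB8P1 (2.18 and 0.639), the transcript RP11-70L8.5 (1.497 and 0.618) and the retroviral pseudogene ERVFRD-3 (0.0297 and 1.02). CDKN2B-AS1, the antisense RNA known as ANRIL, whose span includes CDKN2B and reaches CDKN2A, was at 0.770 and 0.405 FPKM in the 5637 hairpin libraries and at 0 elsewhere. The kit keeps strand, but whether the counting used it is not given in the sources used here, so fragments of overlapping antisense genes may be shared. CDKN2A and CDKN2B are also paralogs.

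Outside the stretch the rows were mixed. Of 16 further rows with at least 1 FPKM in any library, 8 had at least 1 FPKM in every library, among them KLHL9, an adaptor of a ubiquitin ligase, on the telomere side and the CLIC4 pseudogene CLIC4P1 and TUSC1 on the other. KLHL9 ran from 16.8 to 22.9 FPKM in UM-UC-3, stood at 24.3 in the library labelled 5637 sh-NC, and at 11.5 and 10.6 in the 5637 hairpin libraries. TUSC1 ran from 21.9 to 27.5 FPKM in UM-UC-3, stood at 20.2 in the library labelled 5637 sh-NC, and at 11.8 and 11.4 in the 5637 hairpin libraries. Both were thus lower, not higher, in the 5637 hairpin libraries. FOCAD, CAAP1, PLAA, IFT74 and C9orf72 made up the rest of the 8. In another 6 of the 16 rows, both 5637 hairpin libraries were above the other 4, as within the stretch. ELAVL2, an RNA-binding protein gene, was at 5.03 and 3.80 FPKM in the 5637 hairpin libraries and at 0.0379 to 0.152 elsewhere. MOB3B was at 5.57 and 5.997 FPKM there and at 0.0478 to 0.228 elsewhere, and HACD4 at 1.83 and 1.31 FPKM there and at 0.133 to 0.209 elsewhere. IFNWP19, an interferon pseudogene, was at 2.12 and 2.01 FPKM there and at 0.159 to 0.693 elsewhere. Next to MTAP, IFNE was at 2.09 and 1.78 FPKM in the 5637 hairpin libraries and at 0.151 to 0.365 elsewhere, and MIR31HG, the host of the miRNA gene MIR31, was at 3.16 and 1.87 FPKM there and at 0.120 to 0.702 elsewhere. These 6 rows were low outside the 5637 hairpin libraries but not at 0, so low levels were not confined to the stretch. RNA levels do not measure DNA copies, and loss of the DNA was not tested.

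RB1 showed the opposite order. The retinoblastoma protein binds E2F factors and holds cells in G1, and its gene lies at 13:48303751-48481986 (ENSG00000139687). In UM-UC-3, RB1 stood at 31.7 (sh-NC), 23.7 (sh-LNMAT1#1) and 24.6 FPKM (sh-LNMAT1#2). The library labelled 5637 sh-NC had 22.2 FPKM, against 0.893 and 0.804 FPKM in the 5637 hairpin libraries. The 2 hairpin libraries of 5637 were low but above the floor, and the sets did not overlap, with a UM-UC-3 mean 31.4 times the 5637 hairpin mean. On the log2 scale the 5637 hairpin libraries were lower by a difference of -4.19 (standard error 0.19, adjusted p = 0.000181, limma). The sh-NC libraries of the lines differed by -0.51 (standard error 0.27, adjusted p = 0.544).

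The drop at RB1 was not shared by most genes around it. Of 10 genes within 1 Mb, the log2 difference of the 5637 hairpin libraries from UM-UC-3 ranged from -1.42 to 0.27 with a median of -0.48, beside -4.32 for RB1. LPAR6, a receptor gene within an RB1 intron, was at 0.285, 0.236 and 0.321 FPKM in UM-UC-3, at 0.291 in the library labelled 5637 sh-NC, and at 0.00506 and 0.00543 in the 5637 hairpin libraries. It was too low to be tested, and its levels had the same order as those of its host gene. The other pocket proteins did not pass the test, RBL1 with 0.29 (adjusted p = 0.418, limma) and RBL2 with 0.24 (adjusted p = 0.382).

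CCND1, whose product cyclin D1 activates CDK4 and CDK6, lies at 11:69641087-69654474 (ENSG00000110092). In UM-UC-3 it stood at 123 (sh-NC), 98.7 (sh-LNMAT1#1) and 77.5 FPKM (sh-LNMAT1#2), at 96.5 in the library labelled 5637 sh-NC, and at 14.7 and 32.1 in the 5637 hairpin libraries. All 4 of the former were above both 5637 hairpin libraries, which differed from each other by more than they did for RB1. The UM-UC-3 mean was 4.26 times the 5637 hairpin mean. The log2 difference between hairpin libraries was -1.98 (standard error 0.39, adjusted p = 0.0147, limma). This call was lost without 5637 sh-LNMAT1#1 (-1.43, adjusted p = 0.0804), without UM-UC-3 sh-LNMAT1#1 (-1.81, adjusted p = 0.0920) and without UM-UC-3 sh-LNMAT1#2 (-2.16, adjusted p = 0.0629), and with no filter on low values (adjusted p = 0.113). Its neighbours on 11q13 went in both directions. ANO1, a chloride channel gene, was at 23.1 and 30.7 FPKM in the 5637 hairpin libraries and at no more than 0.0193 elsewhere, whereas CTTN, which encodes cortactin, was lower there by a log2 difference of -1.51 (adjusted p = 0.00285).

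CDKN1A encodes p21, the inhibitor of CDK2 that p53 induces, at 6:36676460-36687339 (ENSG00000124762). In UM-UC-3 it stood at 44.8 (sh-NC), 43.5 (sh-LNMAT1#1) and 25.9 FPKM (sh-LNMAT1#2), at 36.3 in the library labelled 5637 sh-NC, and at 21.2 and 31.7 in the 5637 hairpin libraries. The lines overlapped. The difference between the hairpin libraries was -0.37 (standard error 0.33, adjusted p = 0.424, limma), within the spread between hairpins, and that between the sh-NC libraries was -0.30 (adjusted p = 0.820).

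TSC1 encodes hamartin, which with tuberin switches off mTORC1, at 9:132891348-132944633 on the long arm (ENSG00000165699). In UM-UC-3 it stood at 2.48 (sh-NC), 3.95 (sh-LNMAT1#1) and 3.97 FPKM (sh-LNMAT1#2), at 3.70 in the library labelled 5637 sh-NC, and at 3.08 and 3.27 in the 5637 hairpin libraries. The lines overlapped here too. The difference between the hairpin libraries was -0.28 (standard error 0.20, adjusted p = 0.315, limma). Every library held at least 2.48 FPKM of this gene, unlike the genes of 9p21.

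KDM6A removes methyl groups from lysine 27 of histone H3 and lies at X:44873177-45112602 (ENSG00000147050). It stood at 12.8 FPKM in each of the 5637 hairpin libraries. In UM-UC-3 it stood at 4.82, 2.99 and 4.24 FPKM, and in the library labelled 5637 sh-NC at 3.03. The 5637 hairpin libraries were the highest, with a mean 3.19 times that of UM-UC-3, and no library had lost the transcript. The log2 difference between hairpin libraries was 1.71 (standard error 0.23, adjusted p = 0.00455, limma), and it was lost as a call without 5637 sh-LNMAT1#1 (1.71, adjusted p = 0.0978) or without 5637 sh-LNMAT1#2 (1.71, adjusted p = 0.0926). The sh-NC libraries differed by -0.59 (adjusted p = 0.551). The 5637 hairpin libraries were also set against all 3 UM-UC-3 libraries, sh-NC included. On this log2 measure the 3 neighbours within 1 Mb that averaged at least 1 FPKM differed by -0.54 to 0.51, beside 1.58 for KDM6A. Of 11 partners in its COMPASS-like complexes, KDM6A included, it alone passed the test, beside 37.5% of all genes in either direction.

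Across the 8 genes, 7 could be tested. Between the hairpin libraries of the lines, 3 were higher in 5637 (CDKN2A, MTAP, KDM6A) and 2 were lower (RB1, CCND1), where 18.4% of all 12716 genes were called higher and 19.1% lower. Separation of the lines was therefore common among all genes, and a count of members does not set them apart. Without a test, 6 of 8 members had 5637 hairpin and UM-UC-3 libraries that did not overlap, beside 65.9% of all genes.

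Between the sh-NC libraries, 0 of 7 were called in either direction by limma, beside 0% of all genes called higher and 0% called lower. An unadjusted p under 0.05 was found for 0 of 7 members, beside 1170 of all 12716 genes, and 7 genes are too few to differ from that share. Each sh-NC library was a lone sample assumed to vary like the hairpin libraries. The library labelled 5637 sh-NC was nearer to the UM-UC-3 mean than to the 5637 hairpin mean for 8 of 8 members, beside 79.6% of all genes and 90.4% of the 8382 genes whose lines did not overlap. It fell within the UM-UC-3 range for 4 of 8, beside 54.0% of all genes. The members thus gave this library the order that most separating genes gave it.

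The comparison the study made, hairpins against sh-NC within a line, read differently in the lines. In UM-UC-3, 0 of 7 members were called by limma, beside 0% of all genes called higher and 0% called lower. An unadjusted p under 0.05 was found for 0 of 7, beside 768 of all 12716 genes. CDKN2A had a log2 difference of 0.01 and RB1 of -0.39 (adjusted p = 0.844). In 5637, the same comparison called 3 members higher and 2 lower, beside 15.9% and 15.1% of all genes. CDKN2A had a difference of 5.81 (adjusted p = 0.000553), MTAP of 3.86 (adjusted p = 0.000954), RB1 of -4.07 (adjusted p = 0.000567), CCND1 of -2.12 (adjusted p = 0.0266) and KDM6A of 1.91 (adjusted p = 0.00790). The direct test of the difference between the lines called CDKN2A, MTAP and KDM6A higher and RB1 lower, beside 10% and 8.79% of all genes. Here too, CDKN2A and MTAP reached the limit for testing only through the 5637 hairpin libraries, so their p-values add no separate support. Every one of these 5637 values rested on the library labelled 5637 sh-NC. The knockdown and the identity of that library cannot be told apart in them. In bulk RNA, fewer cells of a type and less RNA per cell cannot be told apart either.

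The rest of the G1 pathway was read between the hairpin libraries, without either sh-NC library. In this comparison 18.4% of all genes were called higher and 19.1% lower, which is the background for each count below. Of 3 INK4 genes tested, CDKN2A passed, while CDKN2C (-0.92, adjusted p = 0.0845, limma) and CDKN2D (0.96, adjusted p = 0.0751) did not. Of 3 CIP and KIP genes, 0 were higher and 1 was lower, CDKN1B, which encodes p27, at -1.20 (adjusted p = 0.0123). Of 8 G1 cyclins and kinases, 2 were higher, the E2F targets CCNE2 (2.06, adjusted p = 0.0170) and CCNE1 (0.66, adjusted p = 0.0479), and 2 were lower, CCND1 and CCND2. CCND2, which encodes cyclin D2, was listed at 0 in both 5637 hairpin libraries, at 14.2, 22.2 and 12.8 FPKM in UM-UC-3, and at 22.5 in the library labelled 5637 sh-NC. Neither CDK4 (-0.55, adjusted p = 0.0797) nor CDK6 (0.34, adjusted p = 0.606) passed.

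Of 10 E2F factors and partners, 1 was higher and 2 were lower. E2F3, an activator of S-phase genes, was at 61.5 and 36.8 FPKM in the 5637 hairpin libraries, at 8.19, 6.79 and 4.47 in UM-UC-3, and at 6.62 in the library labelled 5637 sh-NC, a log2 difference of 2.998 (standard error 0.34, adjusted p = 0.00226, limma). The repressive E2F4 and E2F5 were lower, with -0.88 (adjusted p = 0.0234) and -0.84 (adjusted p = 0.0271). Of 24 E2F target genes, 7 were higher (29.2%) and 0 lower, beside 18.4% and 19.1% of all genes, with a list median of 0.46 beside -0.05 over all genes. They were led by TK1, thymidine kinase (1.91, adjusted p = 0.0185), RRM1, a ribonucleotide reductase subunit (1.22, adjusted p = 0.0122), and CDT1, a replication licensing factor (1.17, adjusted p = 0.0381). The UM-UC-3 hairpin libraries used here lay below UM-UC-3 sh-NC by a list median of -0.49, with 0 targets called. Beside UM-UC-3 sh-NC the targets were mixed. TK1 was at 44.3 and 19.2 FPKM in the 5637 hairpin libraries and at 11.8 in UM-UC-3 sh-NC, but TYMS was at 27.0 and 16.3 beside 41.7.

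**Figure D1:**
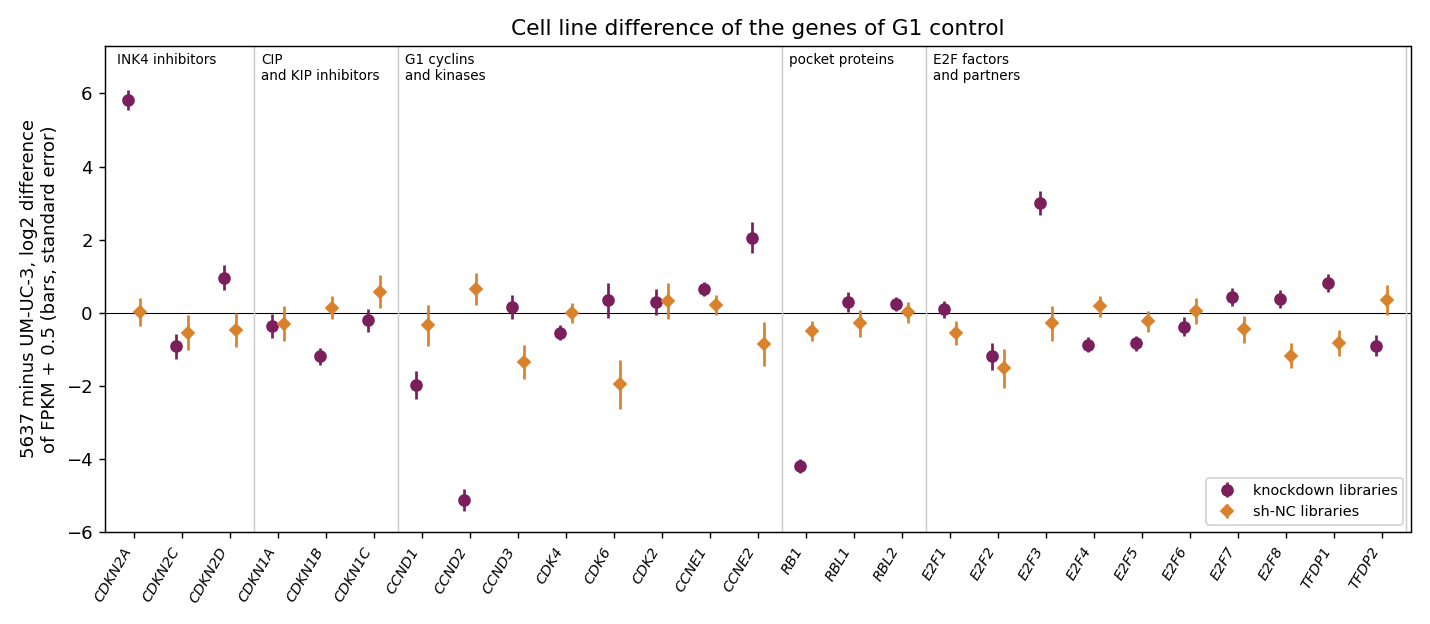
Log2 difference of FPKM + 0.5 between 5637 and UM-UC-3 for the tested genes of 5 groups of G1 control, in the hairpin libraries (purple circles) and in the sh-NC libraries (orange diamonds), with standard errors as bars. In the hairpin libraries CDKN2A (5.82) and E2F3 (2.998) stood at the top and CCND2 (-5.12) and RB1 (-4.19) at the bottom, while 0 genes of these groups were called between the sh-NC libraries.

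The p53 target list, which holds CDKN1A, moved both ways, with 5 higher and 7 lower of 23 tested. Among all genes 18.4% were called higher and 19.1% lower, which is the background for this list and the next 2. PHLDA3 was among the higher (3.63, adjusted p = 0.000231, limma), and SESN2, which restrains mTORC1, among the lower (-3.19, adjusted p = 0.000410). PHLDA3 was listed at 0 in UM-UC-3 and reached the limit for testing only through the 5637 hairpin libraries. Its p-value therefore adds no separate support. Of 15 genes of the TSC complex and mTORC1, 2 were higher, RRAGB (1.07) and RPTOR (0.79), and 1 was lower, the translation inhibitor EIF4EBP1 (-1.62, adjusted p = 0.00240). Of 14 genes around MTAP in methionine salvage and PRMT5 function, 2 were higher, MTAP and MRI1 (0.83), and 4 were lower, led by RIOK1, a PRMT5 cofactor (-1.74, adjusted p = 0.00960), and MAT2A, which makes S-adenosylmethionine (-1.62, adjusted p = 0.00282). PRMT5 itself did not pass (-0.47, adjusted p = 0.336).

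Among 16 other genes recurrently lost or mutated in bladder cancer, 5 were higher and 2 lower in the 5637 hairpin libraries, beside 18.4% and 19.1% of all genes. The epithelial factors KLF5 (5.06, adjusted p = 0.000228, limma) and ELF3 (4.04, adjusted p = 0.000196) were among the higher. ELF3 was at no more than 0.0140 FPKM outside the 5637 hairpin libraries and reached the limit for testing only through them. Its p-value therefore adds no separate support. The lower ones were ATM (-1.24, adjusted p = 0.0194) and CDKN1B. Between the sh-NC libraries, 0 genes of any list were called. Over all lists, 65 distinct genes of 156 tested were called between the hairpin libraries (41.7%), beside 37.5% of all genes in either direction, so the lists as a whole were near the background. Among all genes whose lines did not overlap, the library labelled 5637 sh-NC was nearer to the UM-UC-3 mean for 90.4%. The share over all called genes was not computed. Of the 65 list genes called, the library was nearer to the UM-UC-3 mean for 64. The exception, GDF15, was chosen after its values were seen. It was at 6.998 FPKM in the library labelled 5637 sh-NC, at 7.58 and 6.71 in the 5637 hairpin libraries and at 1.63, 2.93 and 3.23 in UM-UC-3.

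The genes whose log2 levels were most like those of each member are given as a description over 6 libraries that fall into separate sets. CDKN2A was most like HOXA10-AS and NXT2, CDKN2B most like CDKN2A and EHF, MTAP most like ADGRF1, and RB1 most like CD40 and TACC2, all with r over 0.99. For CDKN2A as many as 544 other genes had an r over 0.99, for CDKN2B 548, for MTAP 510, for RB1 188 and for KDM6A 101, so their pattern was widely shared. For CDKN1A and TSC1, whose libraries overlapped between the lines, 1 other gene each had such an r, and for CCND1 8.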

How the data were processed

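RNA-seq was analysed in 6 libraries, assigned by title to cell line and construct. The values deposited are FPKM, in a single table with 50869 rows. Per the labels, RNA was extracted with TRIzol and RNeasy, and a TruSeq stranded mRNA kit was used. HISAT2 and hg38 are named in the submitters' processing notes, and the counting program and annotation are not given in the sources used here. A row without values and 1 broken row were left out, which left 50867 genes. GENCODE release 29 held 50110 of the identifiers, 47483 of them at the same position.

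FPKM holds no counts. For single-exon genes, FPKM times exon length came out as whole multiples of 1 fragment (within 0.05) for at least 99.96% of values checked, which gave the depths. Multi-exon genes gave no whole numbers, so their fragments were given as a range, from the length of the shortest transcript to that of all exons, and a floor of 3 fragments was used per library.

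The test was limma 3.58.1 in R 4.3.3 (lmFit, and eBayes with a trend) on log2(FPKM + 0.5) over all 6 libraries, for the 12716 genes averaging 1 FPKM or more. The fit had 4 means (line by control or hairpin) and 2 residual degrees of freedom. Tests were two-sided, with Benjamini-Hochberg adjusted p under 0.05 over all genes tested. P-values measure the spread between the 2 hairpins of each line, which nothing says came from separate cultures. A gene high in only 1 set of libraries can reach the mean of 1 FPKM through that set alone. Its p-value then adds no separate support. The fit was tested on simulated data. Python 3.11.15 with pandas 2.3.3 and matplotlib 3.10.9 was used elsewhere.

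The members and gene lists were chosen with earlier results of these data known. Named were all members, LINC01296, every 9p21 gene with at least 1 FPKM in any library, up to 3 called genes per list and direction with the largest change, and the 2 genes most like each member. Some of these are not reported here. Other list genes, LPAR6 and CDKN2B-AS1 were picked once their values were known. The alternatives were other pseudocounts, filters, scaling, no trend, an additive fit of line and knockdown, the hairpin number as a block, and leaving out each library in turn. RefSeq promoters were found for 7 of 8 members. CCND1 is named only, and the RB1 entry lies at an internal start and is not printed.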

Additional observations from a re-analysis of the deposited data

Results flagged for a closer look

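For 4 members the difference between hairpins and sh-NC was itself different between 5637 and UM-UC-3 in the interaction test of limma. The interaction was 5.81 for CDKN2A (adjusted p = 0.00309), 3.86 for MTAP (adjusted p = 0.00516), -3.69 for RB1 (adjusted p = 0.00366) and 2.30 for KDM6A (adjusted p = 0.0197), all on the log2 scale. CDKN2A and MTAP reached the limit for testing only through the 5637 hairpin libraries, so their p-values add no separate support. The 2 hairpin libraries of 5637 stood on the same side of the library labelled 5637 sh-NC for each of the 4 genes. All 4 values rested on that library, whose levels were near those of UM-UC-3, and its part in the interaction cannot be told apart from that of the knockdown. The interaction for KDM6A was lost as a call without 5637 sh-LNMAT1#1 (adjusted p = 0.171), without 5637 sh-LNMAT1#2 (adjusted p = 0.161) and with no filter on low values (adjusted p = 0.0663).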

How the results depend on the processing

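Between the hairpin libraries of the lines, 2342 genes were higher and 2425 lower in 5637. With a mean of at least 5 FPKM these were 913 and 1264, and with an additive fit 1 and 0. Leaving out each library in turn gave 873 to 2620 higher and 525 to 2535 lower, and the low ends came without either 5637 hairpin library. Between the sh-NC libraries, 0 and 0 became 488 and 419 with no filter and 1 and 1 with the hairpin number as a replicate block, and ran from 0 to 1 in each direction with a library left out. In UM-UC-3, 0 and 0 became 32 and 400 with no filter, and 0 to 2 and 0 to 1 with a library left out. In 5637, 2026 and 1918 became 782 and 991 at 5 FPKM and 0 and 0 in the additive fit, and 759 to 2757 and 317 to 2667 with a library left out. For the interaction, 1271 and 1118 became 420 and 469 at 5 FPKM, and 581 to 2094 and 103 to 1933 with a library left out. The cause of these changes was not tested, beyond the fewer genes at 5 FPKM.

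The additive fit, which treats the library labelled 5637 sh-NC as its label says, left 0 members called (adjusted p = 0.217 for CDKN2A, MTAP, RB1 and CCND1, and 0.324 for KDM6A, between the lines). It reversed KDM6A in UM-UC-3 (0.76) and TSC1 in 5637 (0.19). The interaction of CDKN1A reversed without 5637 sh-LNMAT1#1 (0.22) and without UM-UC-3 sh-LNMAT1#1 (0.30), in a range from -0.44 to 0.30, and none of these values was called. CDKN2A, MTAP and RB1 kept their calls between the hairpin libraries in every alternative run but the additive fit, MTAP not being tested at 5 FPKM. For CDKN2A and MTAP this adds no separate support. Both reached the limit for testing only through the 5637 hairpin libraries, and their UM-UC-3 values lay under the floor. The replicate block left 2488 and 2652 genes between the hairpin libraries, and the shared hairpin numbers mark a reagent rather than a batch. Scaling by the 75th percentile moved no library by more than 0.04 on the log2 scale. Depth limits CDKN2A, CDKN2B and MTAP, whose low libraries hold under 3 fragments.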
